A study of Schizosaccharomyces pombe with 4 samples.

Results

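Of the 830 noncoding RNAs with an SPNCRNA name on chromosomes I, II and III of fission yeast (Schizosaccharomyces pombe), 526 overlap no mRNA on the opposite strand, and these intergenic and same-strand noncoding RNAs are described here. They were chosen by name and position alone, among 7015 features in the deposited files. The others were 299 that lie antisense to an mRNA and 5 left out by name. The 526 members comprise 229 on chromosome I, 195 on chromosome II and 102 on chromosome III, with a median length of 686.5 bases (56 to 5123). Of these, 133 overlap an mRNA on their own strand and 393 overlap none. For those 393 the next mRNA ahead on the same strand starts a median of 907 bases past their end, with quartiles of 331.75 and 3500.25 bases.

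RNA came from logarithmically growing cells in YEA, a rich medium, after 3 days at 18 °C. The genotypes, with 1 library each, were deletion of swd22, deletion of ssu72, deletion of clr4, and wild type. Swd22, a WD-repeat protein, and Ssu72, a phosphatase, belong to the cleavage and polyadenylation factor (CPF), whose part in heterochromatin and silencing the series addresses, and Clr4 is the histone methyltransferase of heterochromatin. All deposited values are ratios to a further library that the files do not name, whose strain and growth are unknown, and it is called the unnamed reference below. No other allele, marker or treatment of these strains is given in the labels, and none of the differences below could be checked in a replicate.

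As background, RNA polymerase II transcribes much of the yeast genome outside coding genes. CPF cleaves such transcripts and adds a poly(A) tail, and many of them are then degraded by the nuclear exosome, so that they stay scarce in growing cells. In fission yeast the protein Mmi1 binds RNA at the hexamer TNAAAC and sends bound transcripts to the exosome. Transcription of a noncoding RNA across the promoter of a coding gene ahead can repress that gene, as is known for the phosphate genes pho1 and tgp1 of this yeast.

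The 3′ ends of 5 members are shown because CPF acts there, each with the last 60 bases before its annotated end and the 40 bases after it. Capitals mark AATAAA, the classical poly(A) signal, where it lies in those last 60 bases, and the windows are chrIII:2022793-2022892 on the minus strand and chrI:3939044-3939143, chrI:3864336-3864435, chrIII:50083-50182 and chrI:4154635-4154734 on the plus strand of ASM294v3, read 5′ to 3′ from RefSeq.
SPNCRNA.1255: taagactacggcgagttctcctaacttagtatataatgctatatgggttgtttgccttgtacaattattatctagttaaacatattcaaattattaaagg
SPNCRNA.950: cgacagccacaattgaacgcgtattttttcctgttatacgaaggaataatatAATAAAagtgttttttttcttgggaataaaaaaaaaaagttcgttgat
SPNCRNA.237: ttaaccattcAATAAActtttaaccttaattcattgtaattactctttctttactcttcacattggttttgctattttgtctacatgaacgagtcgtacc
SPNCRNA.451: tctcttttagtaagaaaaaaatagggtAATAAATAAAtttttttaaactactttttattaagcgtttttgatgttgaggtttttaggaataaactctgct
SPNCRNA.242: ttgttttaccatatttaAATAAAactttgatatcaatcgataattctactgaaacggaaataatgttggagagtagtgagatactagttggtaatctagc
SPNCRNA.1255 had no AATAAA there, and SPNCRNA.451 had 2 that overlap.

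Shown whole are 2 short members, SPNCRNA.201 (chrI:2667490-2667719, plus strand), which was high in the library labelled clr4 deletion, and SPNCRNA.307 (chrII:487382-487504, plus strand), which was high in both CPF deletions. Beside them stands the 150-base stretch of SPNCRNA.1459 (chrII:1742617-1742766, minus strand) that holds most copies of TNAAAC. SPNCRNA.1459 is nam1 in RefSeq, an RNA known to be bound by Mmi1. Capitals mark TNAAAC.
SPNCRNA.201: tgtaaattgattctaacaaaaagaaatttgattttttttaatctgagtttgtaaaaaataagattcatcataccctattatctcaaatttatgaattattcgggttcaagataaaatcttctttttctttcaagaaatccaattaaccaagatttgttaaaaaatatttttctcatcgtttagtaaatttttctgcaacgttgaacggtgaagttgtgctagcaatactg
SPNCRNA.307: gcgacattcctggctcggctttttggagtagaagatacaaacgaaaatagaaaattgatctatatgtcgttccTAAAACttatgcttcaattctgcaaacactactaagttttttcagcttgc
SPNCRNA.1459: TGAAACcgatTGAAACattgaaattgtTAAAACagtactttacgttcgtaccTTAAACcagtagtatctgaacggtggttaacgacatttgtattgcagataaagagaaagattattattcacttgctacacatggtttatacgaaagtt
SPNCRNA.201 held no copy, SPNCRNA.307 held 1 and the stretch of SPNCRNA.1459 held 4 of its 9.

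The libraries held 15282718 to 24005944 reads over all features, the fewest in the library labelled wild type. The targeted genes were checked first. Reads of ssu72 numbered 16 in its deletion and 478 to 740 elsewhere, and reads of swd22 numbered 281 in its deletion and 651 to 787 elsewhere, so that swd22 was lower there but not absent. The clr4 gene held 1645 reads in its deletion and 1158 to 1445 elsewhere, which goes against that label unless the deposited row covers sequence the deletion left in place. The swd22 and ssu72 deletions and the library labelled clr4 deletion are listed below as the deletions, as labelled, and a direction drawn from the swd22 or the clr4 label rests on that label. The library labelled wild type stood apart at swi6 and ura4, genes that no label names. It held 200 reads of swi6 (3601 to 4431 in the others) and 6 of ura4 (1732 to 3961 in the others). Its log2 ratios to the unnamed reference were -3.90 for swi6 and -7.60 for ura4. For this reason the main counts against it are given beside counts against the unnamed reference.

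Members were scarce. At least 10 reads in some library were held by 340 of the 526, at least 50 by 221, and 116 had at most 4 reads in every library. Rows that overlap on the same strand lost reads: all 54 members wholly covered by other rows had at most 4 reads in every library, so nothing can be said of them. Members with at least 10 reads numbered 287 in the swd22 deletion, 303 in the ssu72 deletion, 312 in the library labelled clr4 deletion, 227 in the library labelled wild type and 281 in the unnamed reference. These numbers are not scaled for depth, and the library labelled wild type held the fewest reads over all features. Members took 0.718%, 0.695% and 0.679% of the reads in the swd22, ssu72 and clr4 deletions, 0.400% in the library labelled wild type and 0.407% in the unnamed reference.

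SPNCRNA.242, which lies 770 bases before dap1, held most of those reads. Its level was 4933, 4552 and 4387 RPM (reads scaled to equal library totals) in the swd22, ssu72 and clr4 deletions, 2489 in the library labelled wild type and 2138 in the unnamed reference. The deletions thus stood above both other libraries, with log2 differences of 0.99, 0.87 and 0.82 from the library labelled wild type. Without SPNCRNA.242 the members summed to 2248, 2402 and 2404 RPM in the swd22, ssu72 and clr4 deletions, 1511 in the library labelled wild type and 1935 in the unnamed reference. The library labelled wild type was lowest in that sum as well.

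**Figure D1:**
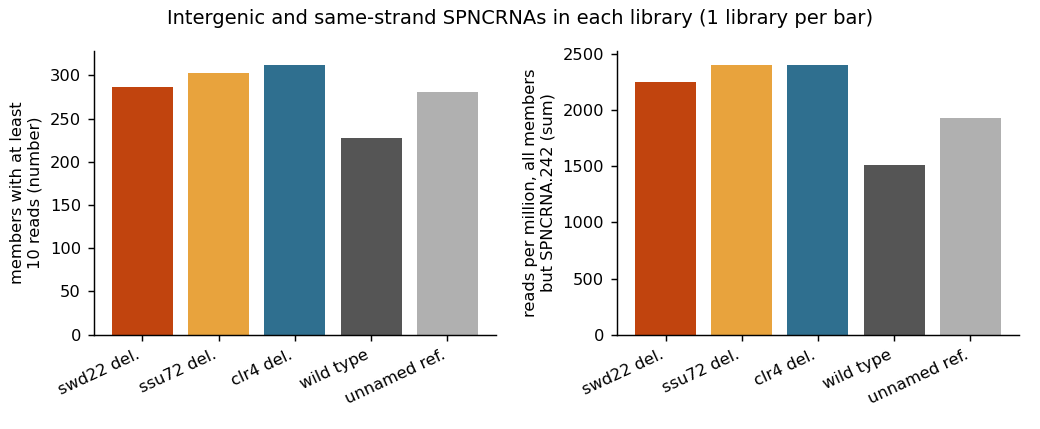
Members with at least 10 reads (left, number) and the summed RPM of all members but SPNCRNA.242 (right), with 1 bar per library. The library labelled wild type is lowest in both, at 227 members and 1511 RPM. The number of members is not scaled for depth, and this library held the fewest reads over all features.

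Per length, the most abundant members were SPNCRNA.242, SPNCRNA.530, SPNCRNA.893, SPNCRNA.1483 and SPNCRNA.1527, at a mean over the 5 libraries of 11044, 197.5, 123.5, 84.39 and 59.39 RPKM, taken over the length not covered by other rows. SPNCRNA.530 is sno530 in RefSeq and held 699, 872 and 663 reads in the swd22, ssu72 and clr4 deletions, 469 in the library labelled wild type and 441 in the unnamed reference. SPNCRNA.1483, which overlaps the small nucleolar RNA snoZ30, held 1506, 2211 and 1787 reads in the same order of deletions, 1573 in the library labelled wild type and 2175 in the unnamed reference. Its differences from the library labelled wild type were below 0, at -0.42, -0.16 and -0.40. SPNCRNA.893 lies 478 bases from the ssu72 gene and points away from it. It held 4927 reads in the ssu72 deletion, 1642 and 2234 in the swd22 and clr4 deletions, 1593 in the library labelled wild type and 1790 in the unnamed reference. Its level was thus highest where the neighbouring gene was deleted, at 0.98 (95% counting interval 0.90 to 1.06) against the library labelled wild type.

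Differences are log2 ratios of reads, kept to the scaling of the deposited ratios. A member entered a comparison where the library with more reads held at least 10, and those 2-fold or more apart were counted. In the swd22 deletion 113 of 295 measured members were at least 2-fold higher than in the library labelled wild type and 16 were lower, where 9.91% and 2.91% of all features were. In the ssu72 deletion 123 of 309 were higher and 13 lower, beside 10.6% and 3.55% of all features. In the library labelled clr4 deletion 137 of 313 were higher and 8 lower, beside 9.27% and 2.24% of all features. The medians of the members were 0.72, 0.75 and 0.85, and those of all features 0.07, 0.04 and 0.02. The members thus lay above the features as a whole in all 3 libraries labelled as deletions. The SPNCRNAs antisense to mRNA were shifted as well, with 60 of 249, 79 of 258 and 68 of 259 higher and medians of 0.49, 0.57 and 0.57, and the difference between both kinds of SPNCRNA was not tested.

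Low counts enter such a comparison through the library with more reads, so the same was counted with at least 10 reads in both libraries. Then 66 of 219 members were higher in the swd22 deletion, 65 of 221 in the ssu72 deletion and 77 of 226 in the library labelled clr4 deletion, with medians of 0.54, 0.44 and 0.69. Over all features 8.86%, 9.23% and 7.66% were higher under that rule.

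With the unnamed reference for comparison the members' medians lay closer to 0. Of 311 members 71 were higher and 56 lower in the swd22 deletion, beside 11.3% and 4.3% of all features. Of 321 members 88 were higher and 48 lower in the ssu72 deletion, beside 11.9% and 3.79%, and of 327 members 87 were higher and 35 lower in the library labelled clr4 deletion, beside 11.1% and 3.14%. The medians were 0.07, 0.11 and 0.21. Members were thus past 2-fold more often than the features as a whole in both directions, with more higher than lower in each deletion. The median over all members was 14, 17 and 19 reads in the swd22, ssu72 and clr4 deletions and 12.5 in the unnamed reference. Such low read numbers pass 2-fold more readily by counting error, and features of like read number were not set beside the members. Without members that overlap an mRNA on the same strand, 50 of 232 were higher and 52 lower in the swd22 deletion. With at least 10 reads in both libraries 44 of 257 members were higher and 41 lower there. That rule gave 55 and 34 of 263 in the ssu72 deletion and 47 and 22 of 266 in the library labelled clr4 deletion. Over all features it gave 10.2% and 3.58%, 10.6% and 3.32%, and 9.26% and 2.65%.

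The library labelled wild type was itself low. Against the unnamed reference 35 of 295 members were at least 2-fold higher in it and 120 lower, beside 7.24% and 6.55% of all features, and the median was -0.71. With at least 10 reads in both libraries, 22 of 213 were higher and 67 lower, beside 6.22% and 5.25% of all features. The antisense SPNCRNAs were also low in it, with 26 of 250 higher, 57 lower and a median of -0.45. It was the lowest of the 5 libraries for 177 of 340 members (52.1%) and for 20.6% of mRNAs. In 53 members it lay at least 2-fold below each of the other 4 libraries, 15.6% of the 340, beside 2.14% of all features. The median over all members was 6 reads in the library labelled wild type. Here too features of like read number were not set beside the members. All 3 comparisons with wild type share this 1 library, so its low values and the genotypes cannot be told apart in them.

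**Figure D2:**
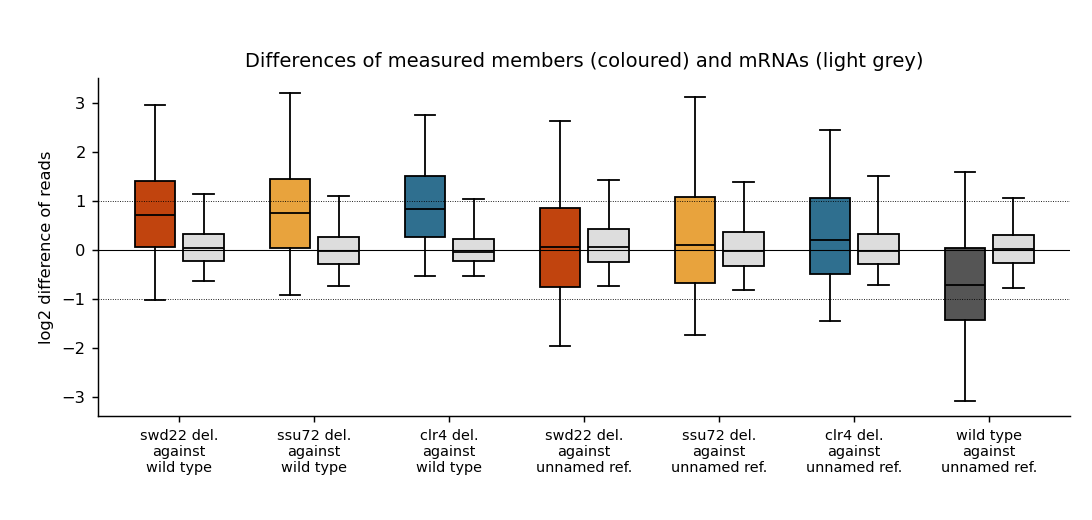
Log2 difference of reads for measured members (coloured boxes) and mRNAs (light grey boxes) in 7 comparisons; boxes span the quartiles with the median as a line, whiskers reach the 5th and 95th percentiles, and dotted lines mark 2-fold. Members lie above 0 against the library labelled wild type (medians 0.72, 0.75 and 0.85), near 0 for the deletions against the unnamed reference (0.07, 0.11 and 0.21) and below 0 for wild type against it (-0.71).

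The CPF deletions were also set against the library labelled clr4 deletion, a comparison that uses neither wild type nor the unnamed reference. Of 320 measured members 17 were higher and 45 lower in the swd22 deletion, beside 2.25% and 3.32% of all features. Of 327 members 25 were higher and 45 lower in the ssu72 deletion, beside 2.45% and 3.13%. The medians were -0.16 and -0.11. The members' median thus lay slightly below 0 in both CPF deletions.

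A group of 27 members was at least 2-fold higher in all 3 deletions than in both the library labelled wild type and the unnamed reference, which is 7.94% of the 340, beside 2.34% of all features. No member was lower in all 3, beside 0.138% of features. SPNCRNA.1255 led this group, with 414, 491 and 409 reads in the swd22, ssu72 and clr4 deletions, 8 in the library labelled wild type and 55 in the unnamed reference. The deletions did not overlap the other libraries, and the differences from the library labelled wild type were 5.33 (4.34 to 6.55), 5.29 (4.30 to 6.51) and 5.10 (4.10 to 6.32). It lies on chromosome III, where SPCC1739.01, which points away, starts 1220 bases behind it and the next mRNA on its strand, cue3, starts 6204 bases ahead. Against the unnamed reference its differences were 3.12, 3.08 and 2.89.

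SPNCRNA.1287 starts 234 bases after the retrotransposon Tf2-13 on the same strand and its own end overlaps the start of taf13, which encodes a subunit of the transcription factor TFIID. It held 441, 841 and 312 reads in the swd22, ssu72 and clr4 deletions, 33 in the library labelled wild type and 80 in the unnamed reference. Of its 36-base words 13.27% recur elsewhere in the genome, among them in Tf2-7 and Tf2-2, so part of its reads is uncertain. SPNCRNA.1258 starts within the end of tpx1, which encodes a peroxiredoxin, and 15.25% of its 36-base words recur. It held 165, 163 and 186 reads in the deletions in that order, 23 in the library labelled wild type and 24 in the unnamed reference, with all 3 deletions close together and far above the rest. SPNCRNA.1224 starts within the end of inv1, the gene of invertase, and held 133, 339 and 326 reads in the deletions, 32 in the library labelled wild type and 21 in the unnamed reference.

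SPNCRNA.679, of 2091 bases, starts 5 bases from the start of puf5, a gene of an RNA-binding protein of the pumilio family, and points away from it. It held 974, 1959 and 862 reads in the swd22, ssu72 and clr4 deletions, 254 in the library labelled wild type and 155 in the unnamed reference. Its difference from the library labelled wild type was 2.30 (2.11 to 2.49) in the ssu72 deletion, where puf5 itself had -1.27. SPNCRNA.950, whose 3′ end is shown above with AATAAA 2 bases before its end, lies 494 bases before hem1, a gene of heme synthesis. It held 320, 516 and 245 reads in the deletions, 71 in the library labelled wild type and 119 in the unnamed reference, and the ssu72 deletion was highest for both SPNCRNA.679 and SPNCRNA.950. SPNCRNA.919 and SPNCRNA.920 overlap each other on opposite strands, and each runs into the start of an mRNA, rad25 for SPNCRNA.919 and SPAC17A2.14 for SPNCRNA.920. SPNCRNA.920 held 474, 670 and 670 reads in the deletions, 105 in the library labelled wild type and 214 in the unnamed reference, and SPNCRNA.919 held 142, 180 and 157 reads in the deletions, 32 in the library labelled wild type and 40 in the unnamed reference.

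The positions of the 27 were counted. Of them 8 have an mRNA under 500 bases ahead, 9 overlap an mRNA on the same strand and 12 have a divergent mRNA start under 500 bases away, which is 29.6%, 33.3% and 44.4%, beside 30.3%, 24.7% and 45.6% of the 340.

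**Figure D3:**
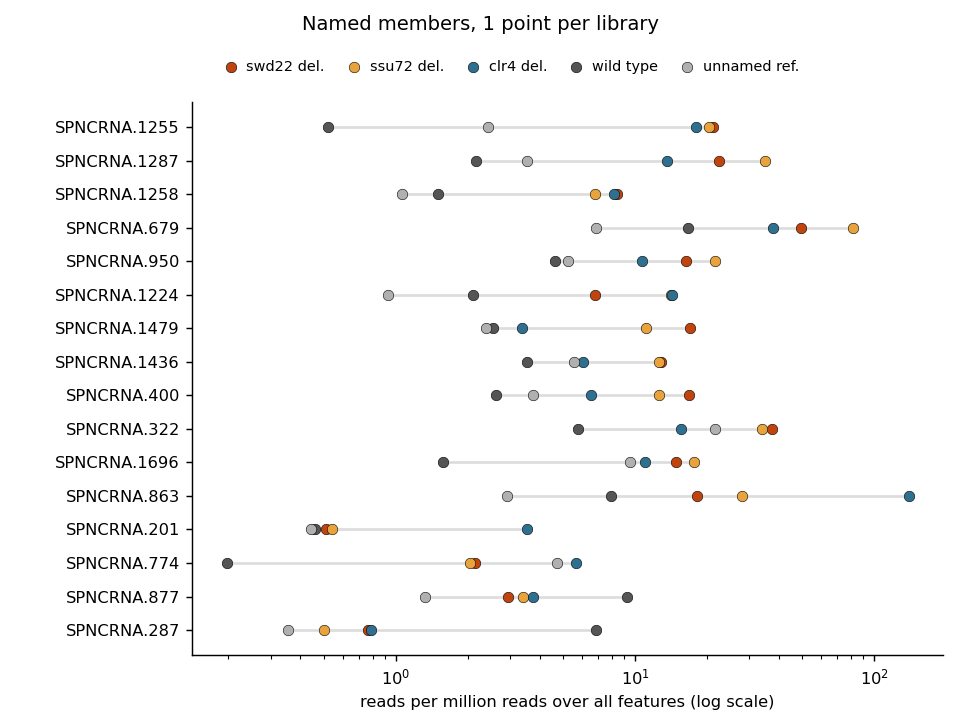
RPM (log axis) of 16 named members, with 1 point per library. SPNCRNA.1255, SPNCRNA.1287 and SPNCRNA.1258 are high in all 3 deletions, SPNCRNA.1479 and SPNCRNA.1436 in both CPF deletions, SPNCRNA.863 and SPNCRNA.201 in the library labelled clr4 deletion, and SPNCRNA.877 and SPNCRNA.287 in the library labelled wild type.

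Both CPF deletions stood at least 2-fold above each of the other 3 libraries in 6 members, 1.76% of the 340, beside 0.615% of all features, and no member was below in the same way, beside 0.108%. The 6 were SPNCRNA.1479, SPNCRNA.1436, SPNCRNA.243, SPNCRNA.451, SPNCRNA.307 and SPNCRNA.1559, and they were named after their values were seen. SPNCRNA.1479 runs into the start of pab2, which encodes a nuclear poly(A) binding protein that works with the exosome, and starts 144 bases from the start of ksp1. It held 333 and 266 reads in the swd22 and ssu72 deletions, 77 in the library labelled clr4 deletion, 39 in the library labelled wild type and 54 in the unnamed reference. Its differences from the library labelled wild type were 2.73 (2.25 to 3.25) and 2.12 (1.63 to 2.64) in the CPF deletions and 0.40 in the library labelled clr4 deletion, where the interval spans 0, while pab2 mRNA had 0.20, 0.07 and -0.26. The CPF deletions thus stood apart for the noncoding RNA and not for its neighbour pab2.

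SPNCRNA.1436 lies 470 bases before omh5 and overlaps the small nucleolar RNA snR95. It held 253 and 302 reads in the swd22 and ssu72 deletions, 139 in the library labelled clr4 deletion, 54 in the library labelled wild type and 126 in the unnamed reference. The library labelled clr4 deletion was close to the unnamed reference, at 0.13. SPNCRNA.307, printed above, held 36 and 34 reads in the swd22 and ssu72 deletions, 7 in the library labelled clr4 deletion, between 0 and 4 in the library labelled wild type and 0 in the unnamed reference. Against a floor of 3 reads in the unnamed reference this is at least 13.9-fold higher in the swd22 deletion and at least 10.7-fold higher in the ssu72 deletion. SPNCRNA.451, 149 bases before SPCC757.04 near an end of chromosome III, held 28 and 45 reads in the swd22 and ssu72 deletions, 12 in the library labelled clr4 deletion, 3 in the library labelled wild type and 1 in the unnamed reference. SPNCRNA.243 held 47, 70, 21, 9 and 19 reads and SPNCRNA.1559 held 24, 29, 7, 2 and 4 reads in the swd22, ssu72 and clr4 deletions, the library labelled wild type and the unnamed reference.

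SPNCRNA.400 and SPNCRNA.322 had much larger values in the CPF deletions than in the library labelled wild type without passing that rule. SPNCRNA.400 lies 112 bases before SPBC365.16 and held 331 and 302 reads in the swd22 and ssu72 deletions, 150 in the library labelled clr4 deletion, 40 in the library labelled wild type and 85 in the unnamed reference. SPNCRNA.322 lies between the divergent flocculin gene pfl3 and naa38 and held 734 and 817 reads in the swd22 and ssu72 deletions, 356 in the library labelled clr4 deletion, 88 in the library labelled wild type and 489 in the unnamed reference. For SPNCRNA.322 the library labelled clr4 deletion was below the unnamed reference, at -0.47, while the CPF deletions were above it, at 0.79 and 0.66.

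The library labelled clr4 deletion stood at least 2-fold above each of the other 4 libraries in 7 members, 2.06% of the 340, beside 0.985% of all features, and in no member below them, beside 0.0769%. SPNCRNA.863 had the most reads of these, 3179 in the library labelled clr4 deletion, 357 in the swd22 deletion, 674 in the ssu72 deletion, 121 in the library labelled wild type and 66 in the unnamed reference. Its difference in the library labelled clr4 deletion was 4.14 (3.87 to 4.41) against the library labelled wild type and 5.58 against the unnamed reference, and the CPF deletions lay between, at 1.20 and 1.83 against the library labelled wild type. Of its 36-base words 57.82% recur, mostly in Tf2 elements, so its reads may come from those copies, which was not tested. SPNCRNA.234 had 218 reads in the library labelled clr4 deletion, 4 in each CPF deletion, 25 in the library labelled wild type and 2 in the unnamed reference, and 96.29% of its words recur, most of them in SPNCRNA.362.

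Members without repeated words were among the 7 as well. SPNCRNA.201, printed above, starts 94 bases after hxk2, the gene of a hexokinase, and had 81 reads in the library labelled clr4 deletion, 10 in the swd22 deletion, 13 in the ssu72 deletion, 7 in the library labelled wild type and 10 in the unnamed reference. Its difference was 2.95 (1.84 to 4.31) in the library labelled clr4 deletion, and hxk2 had -0.22 there. SPNCRNA.1540 starts 38 bases after hsp16, the gene of a small heat shock protein, and had 50 reads in the library labelled clr4 deletion, 10 in the swd22 deletion, 5 in the ssu72 deletion, 1 in the library labelled wild type and 5 in the unnamed reference. There hsp16 moved with it: its reads were 12765 in the library labelled clr4 deletion, 1046 in the swd22 deletion, 1296 in the ssu72 deletion, 1041 in the library labelled wild type and 1968 in the unnamed reference. SPNCRNA.155, 241 bases before the meiotic gene mcp7, had 89 reads in the library labelled clr4 deletion, 18 in the swd22 deletion, 23 in the ssu72 deletion, 15 in the library labelled wild type and 9 in the unnamed reference.

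SPNCRNA.182 lies between arb1, which encodes an argonaute inhibitor of the RNA interference machinery, and ctr1, 6 bases after the end of arb1 and 92 bases before the start of ctr1. It had 31 reads in the library labelled clr4 deletion, 8 in the swd22 deletion, 10 in the ssu72 deletion, 0 in the library labelled wild type and 1 in the unnamed reference. Against a floor of 3 reads in the library labelled wild type the library labelled clr4 deletion was at least 6.91-fold higher, while arb1 and ctr1 had 0.12 and 0.01. The 7 also included SPNCRNA.831, with 13 reads there and at most 5 elsewhere.

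Each CPF deletion also stood apart alone in a few members, named after their values were seen. The ssu72 deletion lay at least 2-fold above each of the other 4 libraries in 4 members, 1.18% of the 340, and below them in 1, 0.294%, beside 0.339% of all features in each direction. SPNCRNA.1122 held 67 reads in the ssu72 deletion, 24 and 25 in the swd22 and clr4 deletions, 9 in the library labelled wild type and 5 in the unnamed reference. SPNCRNA.1657 ends 6 bases before gpd1, a gene of glycerol synthesis, and held 44 reads in the ssu72 deletion, 16 and 9 in the swd22 and clr4 deletions, 0 in the library labelled wild type and 12 in the unnamed reference. Against a floor of 3 reads in the library labelled wild type it was at least 9.34-fold higher in the ssu72 deletion and at least 4.15-fold higher in the swd22 deletion.

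The swd22 deletion lay above each of the other 4 libraries in 1 member, 0.294% of the 340 beside 0.154% of all features, and below them in 5, 1.47% beside 0.185%. The 5 lower members had 0 to 5 reads in the swd22 deletion and at most 24 in any other library. SPNCRNA.93 held 3 reads in the swd22 deletion, 17 and 21 in the ssu72 and clr4 deletions, 14 in the library labelled wild type and 8 in the unnamed reference. The higher member, SPNCRNA.310, held 16 reads in the swd22 deletion, 1 and 7 in the ssu72 and clr4 deletions, 0 in the library labelled wild type and 1 in the unnamed reference. It starts 332 bases after SPAC186.06, which held 759 reads in the swd22 deletion, 55 and 378 in the ssu72 and clr4 deletions, 19 in the library labelled wild type and 17 in the unnamed reference, so that both transcripts had the same order of libraries at the top.

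In the library labelled wild type 4 members were at least 2-fold higher than in each of the other 4 libraries, 1.18% of the 340, beside 0.892% of all features. SPNCRNA.287 held 15, 12 and 18 reads in the swd22, ssu72 and clr4 deletions, 105 in the library labelled wild type and 8 in the unnamed reference. SPNCRNA.601 held 21, 16 and 43 reads in the deletions, 105 in the library labelled wild type and 18 in the unnamed reference. These lie near ends of chromosomes II and I, and 94.55% and 95.61% of their 36-base words recur, many of them in each other, so that their values may share reads. SPNCRNA.877 has no such words and held 58, 82 and 86 reads in the deletions, 142 in the library labelled wild type and 30 in the unnamed reference. It starts 430 bases from the phospholipase gene SPAC1786.02, which was also lower in the CPF deletions, at -1.14 and -1.17.

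Members with at least 50 reads were searched for values at least 2-fold below both the library labelled wild type and the unnamed reference. Those found were SPNCRNA.1423 in both CPF deletions and SPNCRNA.1425 in the ssu72 deletion, with none in the library labelled clr4 deletion. The share over all features was not counted, so whether such values are rarer among members is not known. SPNCRNA.1423, 341 bases before rtn1, held 20, 21 and 40 reads in the swd22, ssu72 and clr4 deletions, 36 in the library labelled wild type and 59 in the unnamed reference. Its differences from the library labelled wild type were -1.21 (-2.08 to -0.38) and -1.43 (-2.28 to -0.61) in the CPF deletions and -0.43 (-1.11 to 0.26) in the library labelled clr4 deletion. SPNCRNA.1425 held 27, 19 and 33 reads in the deletions, 29 in the library labelled wild type and 64 in the unnamed reference. In the ssu72 deletion it lay at -1.26 and -1.83 against the library labelled wild type and the unnamed reference.

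The unnamed reference lay at least 2-fold above each of the other 4 libraries in 18 members, 5.29% of the 340 beside 1.22% of all features, and below them in 24, 7.06% beside 4.31%. SPNCRNA.388 and SPNCRNA.1306 stood out, named after their values were seen. SPNCRNA.388, which starts 564 bases after mat1-Mc at the mating-type locus of chromosome II, held 0 reads in all 3 deletions and in the library labelled wild type and 747 in the unnamed reference. Against a floor of 3 reads it was at least 215-fold, 263-fold, 251-fold and 168-fold lower in the swd22, ssu72 and clr4 deletions and the library labelled wild type. Neighbouring mRNAs shared this: rga7 held 0 reads in those 4 libraries and 1428 in the unnamed reference, and SPBC23G7.10c held 0 in the 4 and 472 in the unnamed reference. All 4 labelled libraries thus lacked reads of these neighbours, and the labels say nothing of this locus. SPNCRNA.1306, near an end of chromosome II, likewise held 0 reads in the 4 labelled libraries and 403 in the unnamed reference, while its neighbours SPBPB21E7.09 and SPBPB10D8.01 held 284 or more reads in every library.

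Position was set beside these differences. In members with an mRNA under 500 bases ahead, 39 of 89 were higher in the swd22 deletion than in the library labelled wild type, 42 of 94 in the ssu72 deletion and 45 of 94 in the library labelled clr4 deletion. With the next mRNA over 2000 bases ahead these were 17 of 66, 21 of 69 and 24 of 69. Of all features 9.91%, 10.6% and 9.27% were higher in these comparisons. The library labelled wild type was lower than the unnamed reference in 43 of 86 members with a near mRNA and in 29 of 70 with a far one, at medians of -1.01 and -0.52. It was lower in 6.55% of all features. Against the unnamed reference the deletions were higher in 22 of 96, 27 of 100 and 23 of 99 members with a near mRNA and in 17 of 70, 14 of 69 and 20 of 73 with a far one. As shares of measured members these were 22.9%, 27% and 23.2% near and 24.3%, 20.3% and 27.4% far, with the near members higher more often in the ssu72 deletion and less often in the other deletions, and over all features 11.3%, 11.9% and 11.1%.

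Members that overlap an mRNA on the same strand were counted next. Against the library labelled wild type 34 of 78, 34 of 80 and 34 of 81 were higher in the swd22, ssu72 and clr4 deletions and 2, 1 and 2 were lower. Of all features 9.91%, 10.6% and 9.27% were higher there and 2.91%, 3.55% and 2.24% lower. Relative to the unnamed reference 21 of 79, 28 of 80 and 21 of 82 were higher, or 26.6%, 35% and 25.6%, and 4, 5 and 2 were lower, or 5.06%, 6.25% and 2.44%, near the 4.3%, 3.79% and 3.14% of all features. Their medians there were 0.44, 0.57 and 0.57, and those of members with no such overlap -0.10, -0.06 and 0.08.

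Members that start under 500 bases after the end of an mRNA on their strand differed by the library they were set against. In the swd22, ssu72 and clr4 deletions 8 of 26, 7 of 28 and 9 of 25 were higher and 5, 4 and 4 lower than in the library labelled wild type, while 12 of 27, 13 of 28 and 14 of 27 were higher and 2, 0 and 3 lower than in the unnamed reference. Members with a divergent mRNA start under 500 bases away were higher than in the library labelled wild type in 50 of 131, 57 of 139 and 64 of 141, and those without one in 63 of 164, 66 of 170 and 73 of 172, which are close as shares. Set against the unnamed reference, members with a divergent start were higher in 24 of 141, 31 of 148 and 28 of 149 and lower in 35, 31 and 26, and those without one were higher in 47 of 170, 57 of 173 and 59 of 178 and lower in 21, 17 and 9. The difference between both classes was not tested. Of all features 9.91%, 10.6% and 9.27% were higher and 2.91%, 3.55% and 2.24% lower than in the library labelled wild type. Than in the unnamed reference 11.3%, 11.9% and 11.1% of all features were higher and 4.3%, 3.79% and 3.14% lower.

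**Figure D4:**
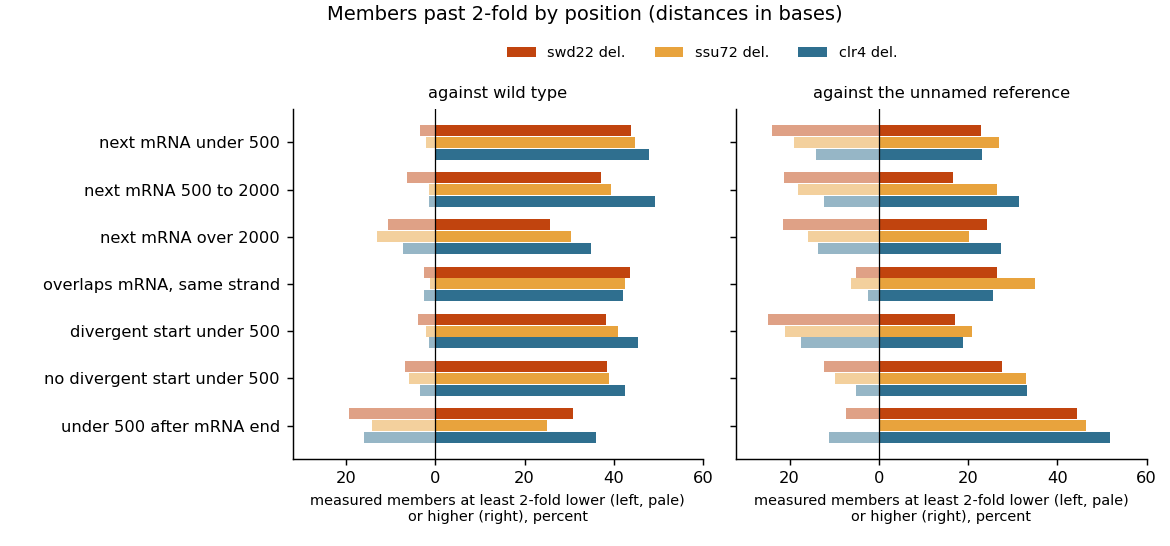
Percent of measured members at least 2-fold lower (pale bars, left of 0) or higher (right of 0) in each deletion, by position, against the library labelled wild type (left panel) and the unnamed reference (right panel). Against the unnamed reference, members under 500 bases after an mRNA end are higher in 44.4%, 46.4% and 51.9%. Of all features 11.3%, 11.9% and 11.1% are higher there.

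The mRNA ahead was set beside each member. Among pairs under 500 bases apart, the member was at least 2-fold higher than in the library labelled wild type in 39 of 89 in the swd22 deletion, and the mRNA was also higher in 5 of these and lower in 0. In the ssu72 deletion the mRNA was also higher in 5 of 42 and lower in 1, and in the library labelled clr4 deletion in 2 of 45 and lower in 3. Over all mRNA rows 6.48%, 6.10% and 5.4% were higher. Where the member was higher, the mRNAs had medians of -0.01, 0.08 and -0.03, and Spearman correlations across the 89, 94 and 94 pairs, which share libraries and depth, were 0.20, 0.22 and 0.01. With the unnamed reference for comparison the mRNA was also higher in 6 of 22, 5 of 27 and 6 of 23 pairs with a higher member and lower in 1 of them in each deletion, beside 8.89%, 8.39% and 8.13% of all mRNA rows. There the mRNAs had medians of 0.62, 0.49 and 0.39 where the member was higher, and the correlations across 96, 100 and 99 pairs were 0.44, 0.41 and 0.23. No member had pho1, tgp1, pho84, mei4 or ura4 as its next mRNA.

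SPNCRNA.400 was a pair in which both were higher in the CPF deletions: SPBC365.16 held 4477 and 4755 reads in the swd22 and ssu72 deletions, 2810 in the library labelled clr4 deletion, 1305 in the library labelled wild type and 2610 in the unnamed reference. SPNCRNA.867 lies 82 bases before mfc1, the gene of a copper transporter, and held 268, 329 and 230 reads in the swd22, ssu72 and clr4 deletions, 74 in the library labelled wild type and 177 in the unnamed reference. Its neighbour mfc1 held 151, 166 and 112 reads in the deletions, 38 in the library labelled wild type and 95 in the unnamed reference, so that the library labelled wild type was lowest for both. SPNCRNA.1343 points away from tgp1 and lies 406 bases before SPBC1271.08c. It held 834, 1041 and 929 reads in the deletions, 326 in the library labelled wild type and 797 in the unnamed reference, and SPBC1271.08c held 10406, 11048 and 7912 reads in the deletions, 309 in the library labelled wild type and 1332 in the unnamed reference. The mRNA thus differed far more than the noncoding RNA before it.

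The opposite was also found. SPNCRNA.163 lies 272 bases before eng1, the gene of an endoglucanase of cell separation, and held 16, 25 and 21 reads in the swd22, ssu72 and clr4 deletions, 7 in the library labelled wild type and 16 in the unnamed reference. Reads of eng1 numbered 4099, 5280 and 7881 in the deletions, 14386 in the library labelled wild type and 11909 in the unnamed reference. The library labelled wild type was thus lowest for the noncoding RNA and highest for the mRNA. Its rank for the noncoding RNA rests on 7 reads in the library with the fewest reads over all features. Whether that difference exceeds counting error was not tested.

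**Figure D5:**
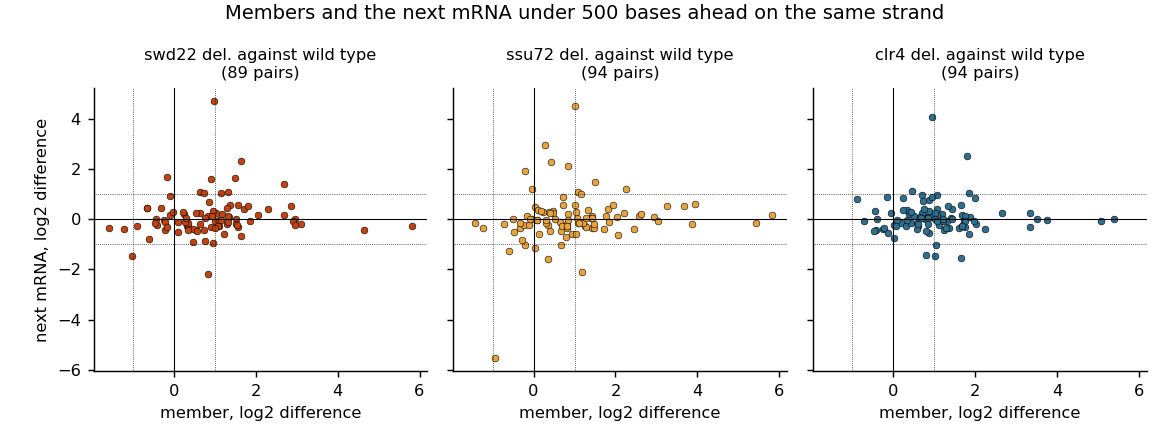
Log2 difference of each member (horizontal axis) and of the next mRNA under 500 bases ahead on the same strand (vertical axis) against the library labelled wild type, in 89, 94 and 94 pairs; dotted lines mark 2-fold. Members spread to the right of 0 while most mRNAs stay within 2-fold.

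Some divergent partners differed together. SPNCRNA.305 starts 281 bases from srx1, the gene of a sulfiredoxin that restores oxidized peroxiredoxin, and points away from it. It held 37, 37 and 30 reads in the swd22, ssu72 and clr4 deletions, 2 in the library labelled wild type and 14 in the unnamed reference, and srx1 held 2478, 4417 and 2107 reads in the deletions, 304 in the library labelled wild type and 165 in the unnamed reference. SPNCRNA.821 starts 455 bases from zym1, the gene of a metallothionein that binds zinc. It held 43, 77 and 47 reads in the deletions, 8 in the library labelled wild type and 4 in the unnamed reference, and zym1 held 1042, 3328 and 2221 reads in the deletions, 320 in the library labelled wild type and 109 in the unnamed reference. SPNCRNA.1619 starts 65 bases from his4, a gene of histidine synthesis, and held 23, 26 and 19 reads in the deletions, 6 in the library labelled wild type and 11 in the unnamed reference, beside 14935, 17094, 9933, 2849 and 7341 reads of his4 in the same order of libraries. For these 3 pairs both transcripts were at least 2-fold higher in every deletion than in the library labelled wild type. Over all divergent pairs under 500 bases the mRNA was also higher in 6 of 50, 5 of 56 and 7 of 62 with a higher member than in the library labelled wild type, and in 6 of 24, 5 of 30 and 12 of 28 with a higher member than in the unnamed reference. The mRNAs of these pairs had medians of 0.07, 0.03 and 0.08 against the library labelled wild type and 0.50, 0.24 and 0.82 against the unnamed reference. Over all mRNA rows 6.48%, 6.10% and 5.4% were higher than in the library labelled wild type. Against the unnamed reference 8.89%, 8.39% and 8.13% of all mRNA rows were higher.

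The opposite direction was met as well. SPNCRNA.545 starts 44 bases from egt1, the gene of ergothioneine synthesis, and held 22, 51 and 27 reads in the swd22, ssu72 and clr4 deletions, 4 in the library labelled wild type and 22 in the unnamed reference. Reads of egt1 numbered 5394, 2931 and 3713 in the deletions, 5169 in the library labelled wild type and 1079 in the unnamed reference. The pair went opposite ways from the library labelled wild type in the ssu72 deletion, at 3.02 and -1.47. It did so in the library labelled clr4 deletion as well, at 2.18 and -1.06. These values rest on 4 reads of SPNCRNA.545 in the library labelled wild type. Against the unnamed reference the pair did not go opposite ways. In the ssu72 deletion SPNCRNA.545 was at 1.13 there, and egt1 also held more reads than in the unnamed reference.

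Members are rich in adenine and thymine. Their median GC content was 32.9%, beside 34% in the SPNCRNAs antisense to an mRNA and 36.7% in mRNA rows. TNAAAC, searched on the transcript strand with overlaps counted, occurred 2.19 times per kilobase in members, 2.01 in the antisense SPNCRNAs and 1.79 in mRNA rows. At least 1 copy was held by 371 of the members (70.5%), beside 81.9% of the antisense SPNCRNAs and 91.8% of mRNA rows. The median lengths were 686.5, 1008 and 1888 bases. AATAAA lay in the last 60 bases of 15.4% of members, 20.1% of the antisense SPNCRNAs and 18.9% of mRNA rows. TGTA lay within 50 bases of the annotated end in 50.8%, 50.5% and 56.1%.

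Members were then split by these motifs. Of the 41 members with at least 5 copies of TNAAAC, 9 of 29 measured were higher in the swd22 deletion than in the library labelled wild type, 12 of 30 in the ssu72 deletion and 13 of 31 in the library labelled clr4 deletion, beside 104 of 266, 111 of 279 and 124 of 282 with fewer copies. The shares of all features higher than in the library labelled wild type were 9.91%, 10.6% and 9.27%. Against the unnamed reference the 3 deletions were higher in 4 of 30, 4 of 31 and 8 of 33 members with many copies, beside 67 of 281, 84 of 290 and 79 of 294 with fewer. As shares the members with many copies were at 13.3%, 12.9% and 24.2%, of which the swd22 and ssu72 values are close to the 11.3% and 11.9% of all features. Lower were 6.67%, 6.45% and 9.09% with many copies and 19.2%, 15.9% and 10.9% with fewer, beside 4.3%, 3.79% and 3.14% of all features. In this comparison members with many copies were thus past 2-fold less often in both directions, with close shares in the library labelled clr4 deletion. Their lower shares rest on 2, 2 and 3 members. Set against the library labelled wild type, 31.0%, 40% and 41.9% with many copies were higher, beside 39.1%, 39.8% and 44.0% with fewer. The split took no account of length, and an effect of the motif was not tested. With AATAAA in the last 60 bases 23 of 53, 24 of 53 and 22 of 55 were higher than in the library labelled wild type, and without it 90 of 242, 99 of 256 and 115 of 258. Set against the unnamed reference 19 of 58, 19 of 58 and 17 of 59 with AATAAA were higher, or 32.8%, 32.8% and 28.8%, and 52 of 253, 69 of 263 and 70 of 268 without it, or 20.6%, 26.2% and 26.1%. Among Mmi1 targets, SPNCRNA.1459 (nam1), whose stretch of TNAAAC is shown above and which lies 50 bases before the mating kinase gene byr2, held 749, 1140 and 971 reads in the swd22, ssu72 and clr4 deletions, 685 in the library labelled wild type and 966 in the unnamed reference. Its differences from the library labelled wild type stayed between -0.23 and 0.08. SPNCRNA.1696 (nam3) held 292, 422 and 251 reads in the deletions, 24 in the library labelled wild type and 215 in the unnamed reference, so that the deletions lay near the unnamed reference, at 0.65, 0.89 and 0.21, and the library labelled wild type below it, at -2.59.

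Genes of nuclear RNA decay and transcript termination were listed as well. Of the 30, none was at least 2-fold higher in a deletion than in the library labelled wild type, and the targeted genes swd22 (-1.65) and ssu72 (-5.55) were the only lower ones, each in its own deletion, where 9.91%, 10.6% and 9.27% of all features were higher and 2.91%, 3.55% and 2.24% lower. With the unnamed reference in its place none was higher and 1, 1 and 0 were lower. The medians of the list were -0.14, -0.20 and -0.17 against the library labelled wild type and -0.11, -0.14 and -0.07 against the unnamed reference in the swd22, ssu72 and clr4 deletions. The exosome gene rrp6 held 3375, 3879 and 3462 reads in the deletions, 2522 in the library labelled wild type and 5861 in the unnamed reference, and mmi1 held 3952, 4999, 4988, 4861 and 5270 reads in the same order.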

How the data were processed

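RNA-seq libraries of 4 genotypes were used, 1 library each, grouped by the genotype label. Libraries were made from total RNA with the ScriptSeq v2 kit, per the labels' protocols. The submitters' processing notes name Trimmomatic, a read trimmer, and STAR, an aligner, without versions. The genome build, counting tool and strand setting of the files were not given in those notes or in the file headers. Chromosome lengths and the positions of 461 members match ASM294v3, from which sequences were read.

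Per the file headers, the authors deposited, per feature (7015 in all), a log2 ratio and its p-value against a library the files do not name. The deposited p-values compare read numbers of 2 libraries and were not used as tests. The unit differed from that assumed in the design, so the scale of the deposited log2 ratios was kept. Read counts were solved from the deposited ratio and p-value (6563 features) or from ratios alone (90), and 362 features with a ratio of 0 in all files were taken to hold at most 4 reads per library. All low-count estimates lay within 0.05 of a whole number. The solving was tested on simulated data.

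Differences are log2 ratios of reads, with 0 reads set to 0.5, where the higher library holds at least 10 reads. Calls are at 2-fold. With 1 library per genotype no test is possible. Counting intervals (95%, exact, by Clopper and Pearson) cover counting error only and not the spread between cultures, as each genotype has 1 library. Reads that carry no molecular identifiers may be copies of 1 molecule, in which case the intervals are too narrow. A bound uses a floor of 3 reads per library. Levels per kilobase use the length not covered by another row of the same strand. Named members had at least 50 reads in the higher library and were the highest and lowest in each deletion, those highest or lowest against both the library labelled wild type and the unnamed reference, the 5 most abundant, or pairs under 500 bases. Other named members were chosen after their values were seen. The members and lists were chosen with earlier results of these data known. Python 3.11.15, numpy 2.4.6, pandas 2.3.3 and scipy 1.17.1 were used.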

Additional observations from a re-analysis of the deposited data

How the results depend on the processing

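Scaling by total reads or by the median of ratios over mRNA, keeping members by their mean reads, and setting 0 reads to 1 left all 8 counts of members past 2-fold within 1.5 times. With the unnamed reference in place of the library labelled wild type the counts were 71 higher and 56 lower in the swd22 deletion, 48 lower in the ssu72 deletion, and 87 higher and 35 lower in the library labelled clr4 deletion. Under the same change SPNCRNA.287 turned to 1.12, 0.504 and 1.16 and SPNCRNA.877 to 1.16, 1.37 and 1.51 in the swd22, ssu72 and clr4 deletions, SPNCRNA.601 to 0.431 and 1.25 and SPNCRNA.1124 to 0.342 and 0.246 in the swd22 and clr4 deletions, and SPNCRNA.1248 to -0.348 in the swd22 deletion. These follow from the values of the replaced library. The other counts moved because fewer or more members enter or a higher fold is asked. With at least 50 reads in the higher library 62 members were higher and 5 lower in the swd22 deletion, 74 and 5 in the ssu72 deletion, 78 and 4 in the library labelled clr4 deletion, and 15 and 75 in the library labelled wild type against the unnamed reference. With at least 5 reads 27, 23 and 14 were lower in the swd22, ssu72 and clr4 deletions. At 4-fold 37 were higher and 6 lower, 48 and 5, and 42 and 1 in the swd22, ssu72 and clr4 deletions, and 11 and 38 in the library labelled wild type. Without members that overlap any row on the same strand 70, 75 and 89 were higher in the deletions and 23 in the library labelled wild type, and 23 in the library labelled wild type also without those that overlap an mRNA. Without members within 100 kb of a chromosome end 5 were lower in the library labelled clr4 deletion. Under these other read limits, folds and sets of members the shares over all features were not counted. These counts therefore do not show how the members stood beside all features. With at least 10 reads in both libraries, a setting chosen after seeing the data, 66 were higher and 9 lower in the swd22 deletion, 65 and 8 in the ssu72 deletion, 77 higher in the library labelled clr4 deletion, and 22 and 67 in the library labelled wild type. No paired analysis was possible because each genotype has 1 library, and for the same reason no replicate could be left out. Depth limits the 186 members with under 10 reads in every library.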
